A study of Rattus norvegicus with 12 samples.

Results

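Ribosome biogenesis factors are the proteins that transcribe, process and fold ribosomal RNA and assemble the ribosomal subunits. A list of 39 such genes was followed in skin-derived precursors (SKPs), dermal precursor cells that grow as spheres, isolated from newborn Sprague-Dawley rats. The members were chosen by name, with earlier results of these data known. Each was read from the array feature annotated with its symbol alone, or from the brightest of several such features. That rule gave a value for 36 of the 39 genes, out of 18166 genes with a feature of their own symbol. All 36 were above the low-signal limit and were among the 13636 genes tested. Dkc1, Rrp12 and Npm1 had no feature annotated with 1 symbol and were not analysed here.

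Cells from dissociated spheres were kept for 24 h in 1 of 4 conditions, each on 3 Affymetrix Rat Gene 2.0 ST arrays. The first received 100 nM trimebutine maleate together with 100 nM trametinib, and is called the combination here. The others received 100 nM trimebutine maleate alone, 100 nM alprostadil, or vehicle. Trimebutine is a gut motility drug with opioid receptor activity, alprostadil is prostaglandin E1, and trametinib blocks the kinase MEK and so the activation of ERK. Trametinib was never given alone, so its addition is measured by setting the combination against trimebutine. The growth medium held the growth factors FGF2 and EGF, and the study describes 3 independent isolates of cells. Replicate numbers 1 to 3 recur in each condition, and arrays with the same number are read here as 1 isolate, since they deviated together.

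Ribosome production starts in the nucleolus, where RNA polymerase I (Pol I) transcribes a long precursor RNA. Small nucleolar ribonucleoproteins (snoRNPs) modify this RNA, the small subunit (SSU) processome frees the 18S part, and separate sets of factors mature the 40S and 60S particles. The pathway is tied to growth: ERK signalling and the transcription factor Myc are both known to raise it in dividing cells.

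Values are deposited log2 signals, where a difference of 1 is a doubling, and per-array values are always given in the order of replicates 1, 2 and 3. A difference is called when its adjusted p, from a limma model over all 13636 genes with Benjamini-Hochberg adjustment, is under 0.05. RMA brings the arrays to a common distribution, so a change in total RNA per cell cannot be seen. In bulk RNA, fewer cells of a type and less RNA per cell cannot be told apart. The 11 SKP and dermal markers with a feature, of 12 looked for, were all above the low-signal limit. Their mean log2 level was 10.93 to 10.99 in the combination and 11.14 to 11.22 in the other conditions. In the combination relative to trimebutine, 3 of the 11 were called higher and 5 lower, with differences from −1.45 to 0.97. Over all genes tested, 16.8% were called higher and 16.6% lower in that comparison. Macrophage and leukocyte markers, 9 of 10 with a feature, averaged 7.49 to 8.39 in the combination, 7.66 to 8.87 in trimebutine, 7.52 to 8.98 in alprostadil and 7.73 to 8.81 in vehicle cultures. Mean levels over all arrays were 5.58 to 5.81 for keratinocyte, 6.30 to 6.55 for melanocyte, up to 6.89 for Schwann cell and 5.78 to 6.12 for endothelial markers, where the low-signal limit was 5.83. In every condition the macrophage and leukocyte markers were lowest in replicate 1 and highest in replicate 3. The part of these cells in the results was not tested.

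Adding trametinib to trimebutine left most ribosome biogenesis genes within a narrow range. Of the 36 members, 3 rose (Wdr75, Bop1 and Mrto4), 1 fell (Nop58) and 32 did not pass the test. That is 11.1% of the members, where 33.4% of all genes tested were called, 16.8% higher and 16.6% lower. The members' differences between the combination and trimebutine ran between −0.29 and 0.32, with a median of 0.02, beside a median of 0.03 over all genes. Differences below 0 were found for 16 of the 36, beside 44.2% of all genes. The median size of the difference, sign ignored, was 0.0907 for the members and 0.161 for all genes. The 95% intervals of all 36 members lay between −0.43 and 0.49, which is 0.742- to 1.41-fold, so each excluded a change of 1.5-fold on the feature the rule selects. A dimmer feature of Nop56 did change by more, as given with that gene, and with the dimmer features of the 4 members that have several, 3 members were lower. Such an interval was found for 77.2% of all genes. With the replicate number as a block, 7 members were called, 6 higher and 1 lower, beside 21.2% of all genes higher and 20.8% lower. The block added Heatr1, Ddx21 and Noc4l, all higher.

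Of 6 genes read as checks of the drug response, 4 fell, 1 rose and 1 did not pass in the combination relative to trimebutine. Dusp6, an ERK phosphatase whose transcription follows ERK activity, read 8.64, 8.06 and 8.44 in the combination, against 11.77, 11.52 and 11.53 in trimebutine cultures. This is a difference of −3.23 (adjusted p = 4e-08). Spry4, a feedback inhibitor of the same pathway, fell by 2.01 on the log2 scale (adjusted p = 7.05e-08). The ETS factor genes Etv4 and Etv5, which ERK signalling is known to induce, fell by 0.71 (adjusted p = 0.000224) and by 0.37 (adjusted p = 0.00621). Nr4a1, an orphan nuclear receptor gene, rose by 1.76 (adjusted p = 4.5e-05), and Pde4b, a cyclic AMP phosphodiesterase gene, differed by 0.03 (adjusted p = 0.871). All 14 members of a proliferation list fell, with a median difference of −2.15. The mean log2 level of the 14 was 7.51 to 7.60 in the combination and 9.42 to 9.78 in trimebutine cultures. The part of this shift in the values of the ribosome biogenesis genes was not tested.

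**Figure D1:**
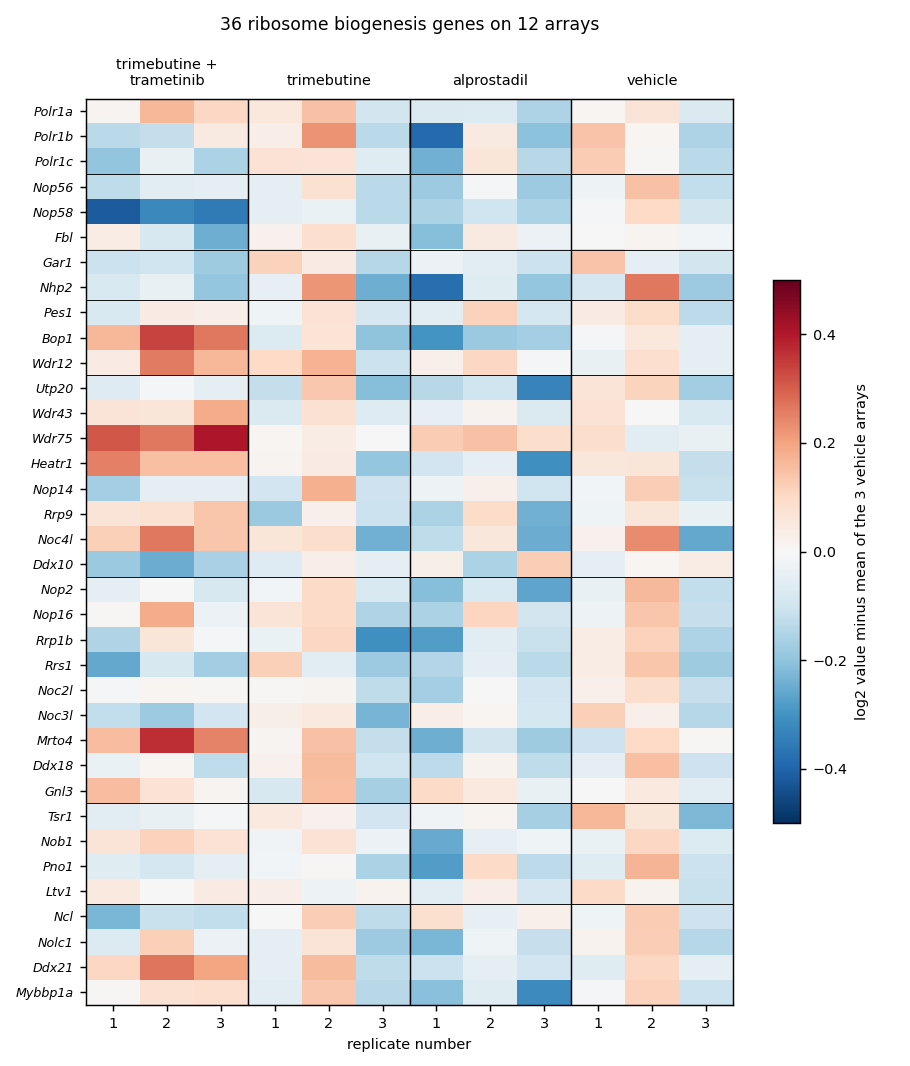
Log2 value of each of the 36 genes on each of the 12 arrays minus the mean of that gene's 3 vehicle arrays, as colours, with genes in rows grouped by role and arrays in columns from the combination on the left to vehicle on the right. Nop58 is below and Wdr75, Bop1 and Mrto4 are above vehicle in all 3 combination columns, while whole columns shade with the replicate number.

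The promoters of a few members are shown here because these genes carry the results that follow: Nop58, the member that fell, its box C/D snoRNP partners Nop56 and Fbl, and Wdr75 and Mrto4, which rose. The sequences are the 250 bases before the annotated start in the RefSeq table of build GRCr8, written 5′ to 3′ on the gene's strand. The table held an entry for 33 of the 36 members. Capitals mark CACGTG, the E-box bound by Myc and its relatives, and CCGGAAG, a core of ETS factor sites, whose reverse complement is CTTCCGG. Nop58 is at chr9:68614824-68615073, plus strand. Nop56 is at chr3:137929929-137930178, plus strand. Fbl is at chr1:92597157-92597406, plus strand. Wdr75 is at chr9:55394982-55395231, plus strand. Mrto4 is at chr5:156891739-156891988, minus strand.
Nop58 promoter: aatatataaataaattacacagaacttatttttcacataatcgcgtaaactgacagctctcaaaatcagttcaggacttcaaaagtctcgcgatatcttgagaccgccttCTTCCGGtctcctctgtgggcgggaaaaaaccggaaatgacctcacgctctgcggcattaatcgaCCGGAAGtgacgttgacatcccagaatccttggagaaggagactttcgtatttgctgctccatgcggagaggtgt
Nop56 promoter: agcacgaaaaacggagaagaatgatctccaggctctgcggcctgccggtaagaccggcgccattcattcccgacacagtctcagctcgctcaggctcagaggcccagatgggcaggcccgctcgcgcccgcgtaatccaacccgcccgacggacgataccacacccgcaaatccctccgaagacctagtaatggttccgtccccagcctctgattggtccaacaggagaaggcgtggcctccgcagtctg
Fbl promoter: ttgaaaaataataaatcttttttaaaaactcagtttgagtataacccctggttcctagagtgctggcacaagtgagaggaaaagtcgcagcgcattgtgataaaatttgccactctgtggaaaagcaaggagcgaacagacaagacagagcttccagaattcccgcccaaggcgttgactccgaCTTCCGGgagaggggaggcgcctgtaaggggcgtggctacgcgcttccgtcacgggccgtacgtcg
Wdr75 promoter: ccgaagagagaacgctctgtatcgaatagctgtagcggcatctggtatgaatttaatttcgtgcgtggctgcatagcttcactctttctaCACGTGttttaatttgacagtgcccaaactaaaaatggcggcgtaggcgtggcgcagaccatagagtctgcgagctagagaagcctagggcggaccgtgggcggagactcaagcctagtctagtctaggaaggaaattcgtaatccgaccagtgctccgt
Mrto4 promoter: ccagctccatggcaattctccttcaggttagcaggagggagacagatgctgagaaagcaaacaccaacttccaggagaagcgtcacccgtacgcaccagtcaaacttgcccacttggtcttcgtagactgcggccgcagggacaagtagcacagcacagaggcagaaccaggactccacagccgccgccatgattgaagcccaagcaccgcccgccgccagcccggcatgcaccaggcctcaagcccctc
Counted back from the start, Nop58 held the ETS letters at positions −140 to −134 and −75 to −69, and Fbl held them at −66 to −60. Wdr75 held the E-box letters at −160 to −155. Nop56 and Mrto4 held neither in this window.

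Among the 33 members with an entry, searched on both strands of these 250 bases, CACGTG was present in 7: Ddx18, Gnl3, Ltv1, Mybbp1a, Pes1, Utp20 and Wdr75. That is 21.2% of the members, beside 7.79% of the promoters of genes tested and 5.59% of all promoters. CCGGAAG was present in 10 members (30.3%), beside 13% of the promoters of genes tested and 7.27% of all: Ddx21, Fbl, Gar1, Ltv1, Nhp2, Noc3l, Nolc1, Nop2, Nop58 and Polr1c. The GC box letters GGGCGG were present in 23 members (69.7%), beside 53.1% of the promoters of genes tested and 30.5% of all. CCAAT was present in 8 members (24.2%), beside 34.5% and 34% in the same order. TATAAA was present in Nop58 alone among the members, at −246 to −241, beside 7.51% and 12.9%. The cyclic AMP response element TGACGTCA was present in Noc4l alone, beside 2.54% and 1.59%. The exact letters searched for the NRF1 motif were present in Pno1 alone, beside 1.33% and 0.762%, and those for the ZNF143 motif in no member, beside 0.558% and 0.263%. None of these letter strings contains another, and matches may overlap at their ends. Of the 3 called members with an entry, 1 held CACGTG and 1 held CCGGAAG. Of the 30 members not called, 6 held CACGTG and 9 held CCGGAAG.

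Nop58 is a core scaffold protein of box C/D snoRNPs, which guide methylation of ribosomal RNA. It read 10.48, 10.58 and 10.55 in the combination, against 10.85, 10.87 and 10.77 in trimebutine cultures. Alprostadil cultures read 10.74, 10.80 and 10.74, and vehicle cultures 10.89, 11.00 and 10.81. Every combination array was below all 9 other arrays. The difference between the combination and trimebutine was −0.29 ± 0.06 (SE), a fold of 0.816 (adjusted p = 0.00346). It held in each isolate, with −0.37, −0.29 and −0.22 in isolates 1, 2 and 3.

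Nop56, the paralogous scaffold of the same particle, is covered by a pair of features, and was called on the dimmer one. On the brighter feature, the one the rule selects, it read 11.14, 11.21 and 11.22 in the combination, against 11.22, 11.34 and 11.13 in trimebutine cultures. These groups overlapped, and the difference was −0.04 ± 0.08 (adjusted p = 0.746). The dimmer feature of Nop56, looked at after the data had been seen, read 8.39, 8.57 and 8.59 in the combination, against 9.33, 9.43 and 8.99 in trimebutine cultures. Alprostadil cultures read 9.01, 9.35 and 9.05 there, and vehicle cultures 9.36, 9.60 and 9.06. All 3 combination arrays were below the other 9, with a difference of −0.73 ± 0.15 (adjusted p = 0.00274). Which feature follows the mature transcript is not given in the sources used here, so the value for Nop56 depends on the feature. Fbl, fibrillarin, the methyltransferase of these particles, read 8.61, 8.49 and 8.33 in the combination, against 8.59, 8.66 and 8.54 in trimebutine cultures. The groups overlapped, with a difference of −0.12 ± 0.08 (adjusted p = 0.315).

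Box H/ACA snoRNPs guide pseudouridylation of ribosomal RNA. Gar1, a core protein of these particles, read 7.27, 7.28 and 7.20 in the combination, against 7.50, 7.42 and 7.24 in trimebutine cultures. Nhp2, an RNA-binding subunit, read 8.42, 8.46 and 8.30 in the combination, against 8.46, 8.72 and 8.25 in trimebutine cultures, and both genes overlapped. Neither passed the test, with a difference of −0.13 ± 0.08 for Gar1 (adjusted p = 0.23) and of −0.08 ± 0.14 for Nhp2 (adjusted p = 0.7). Of the 5 box C/D and box H/ACA core genes measured, Nop58 was the one called on the feature the rule selects.

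**Figure D2:**
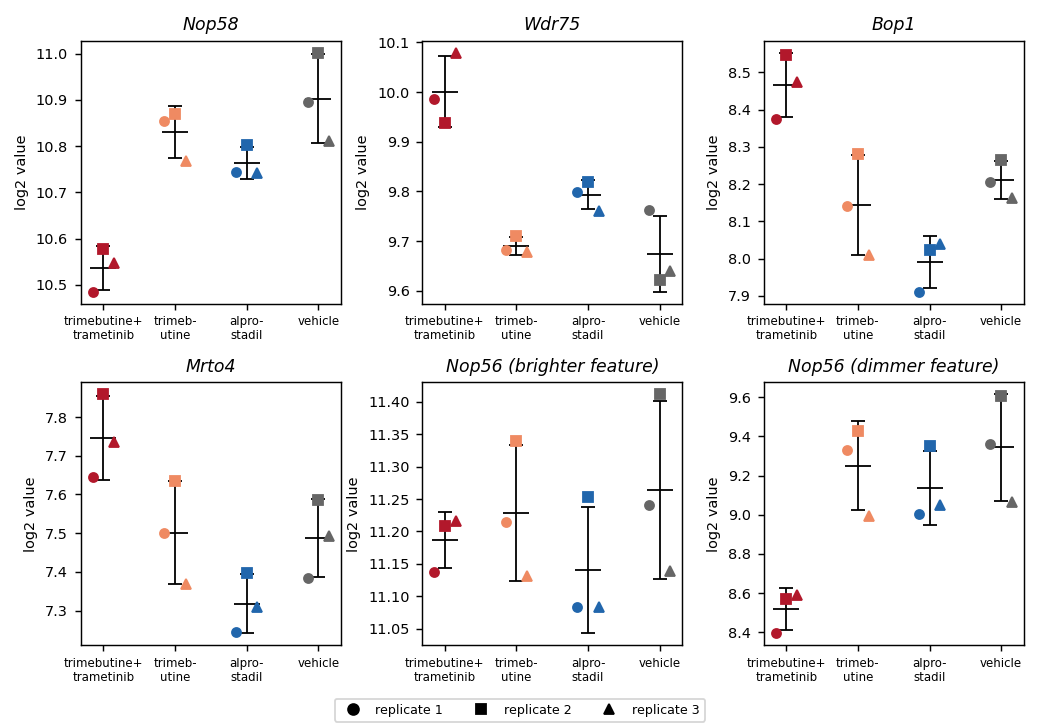
Log2 value per array (points) with the mean ± SD of 3 arrays (bars) in the combination, trimebutine, alprostadil and vehicle for Nop58, Wdr75, Bop1, Mrto4 and both features of Nop56. The combination lies below the other conditions for Nop58 and the dimmer feature of Nop56 and above them for Wdr75, Bop1 and Mrto4, while the brighter feature of Nop56 overlaps.

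The SSU processome held the member with the smallest adjusted p. Wdr75, known in yeast as Utp17, is a subunit of the early-binding UtpA complex, which is tied to Pol I transcription. It read 9.99, 9.94 and 10.08 in the combination, against 9.68, 9.71 and 9.68 in trimebutine cultures. Alprostadil cultures read 9.80, 9.82 and 9.76, and vehicle cultures 9.76, 9.62 and 9.64. Every combination array was above the other 9, and the difference from trimebutine was 0.31 ± 0.06, a fold of 1.24 (adjusted p = 0.00166). Heatr1, known in yeast as Utp10, is a large subunit of the same complex. It read 8.26, 8.16 and 8.16 in the combination, against 8.02, 8.05 and 7.81 in trimebutine cultures. The groups did not overlap, and the difference of 0.23 ± 0.09 missed the threshold (adjusted p = 0.0662) but passed with the replicate block (adjusted p = 0.00863). Wdr43, known in yeast as Utp5 and also of UtpA, read 9.79, 9.79 and 9.91 in the combination, against 9.65, 9.80 and 9.66 in trimebutine cultures. Those groups overlapped, and its difference of 0.12 ± 0.07 did not pass (adjusted p = 0.178).

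The other SSU processome members were mixed in direction. Rrp9, a protein specific to the U3 snoRNP, read 7.45, 7.46 and 7.53 in the combination, against 7.20, 7.41 and 7.28 in trimebutine cultures. Noc4l, which binds Nop14, read 8.83, 8.97 and 8.85 in the combination, against 8.77, 8.80 and 8.47 in trimebutine cultures. Both had their combination arrays above the trimebutine arrays, with differences of 0.18 ± 0.09 for Rrp9 (adjusted p = 0.129) and 0.20 ± 0.13 for Noc4l (adjusted p = 0.256). Noc4l passed with the replicate block (adjusted p = 0.0456). Ddx10, an RNA helicase, went the other way without overlap, at 8.11, 8.05 and 8.13 in the combination, against 8.23, 8.33 and 8.25 in trimebutine cultures. Its difference of −0.17 ± 0.07 did not pass (adjusted p = 0.089). Nop14, another processome protein, read 9.33, 9.45 and 9.45 in the combination, against 9.40, 9.68 and 9.40 in trimebutine cultures. Utp20, a very large scaffold protein, read 8.92, 8.97 and 8.94 in the combination, against 8.87, 9.12 and 8.77 in trimebutine cultures. Both overlapped, with differences of −0.08 ± 0.09 for Nop14 (adjusted p = 0.522) and 0.03 ± 0.10 for Utp20 (adjusted p = 0.881). Across the 8 SSU processome members the median difference was 0.15. Without overlap, 4 lay above and 1 below, where 24% of all genes lay above and 21.8% below. On the features the rule selects, 6 of all 36 members lay above (16.7%) and 2 below (5.56%). Of 36 other SSU processome and snoRNP genes tested, 3 lay above (8.33%) and 7 below (19.4%), with a median difference of 0.01.

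The PeBoW complex of Pes1, Bop1 and Wdr12 is needed to process the 28S precursor for the 60S subunit. Bop1 read 8.38, 8.55 and 8.48 in the combination, against 8.14, 8.28 and 8.01 in trimebutine cultures. Alprostadil cultures read 7.91, 8.02 and 8.04, and vehicle cultures 8.21, 8.26 and 8.16. Every combination array was above the other 9, and Bop1 rose by 0.32 ± 0.08 relative to trimebutine, a fold of 1.25 (adjusted p = 0.00717). Pes1 read 8.90, 9.02 and 9.01 in the combination, against 8.96, 9.05 and 8.89 in trimebutine cultures, which overlapped. Wdr12 read 8.75, 8.97 and 8.88 in the combination, against 8.81, 8.88 and 8.61 in trimebutine cultures, and also overlapped. Their differences were 0.01 ± 0.08 for Pes1 (adjusted p = 0.938) and 0.10 ± 0.08 for Wdr12 (adjusted p = 0.405). Whether the 3 genes differ from each other was not tested.

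Mrto4 was the called member among the other 60S factors. It resembles the stalk protein P0 and holds that protein's place on the immature 60S particle. It read 7.64, 7.86 and 7.73 in the combination, against 7.50, 7.63 and 7.37 in trimebutine cultures. Alprostadil cultures read 7.24, 7.40 and 7.31, and vehicle cultures 7.39, 7.59 and 7.49. The lowest combination array, at 7.64, was just above the highest trimebutine array, at 7.63. The difference was 0.24 ± 0.09, a fold of 1.18 (adjusted p = 0.0462). Of the 4 calls, this was the one lost when arrays were left out, with an adjusted p of 0.100 without trimebutine replicate 1, 0.162 without trimebutine replicate 3, 0.168 without combination replicate 2 and 0.0837 without combination replicate 3.

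The remaining 60S factors overlapped between the combination and trimebutine and did not pass. Nop2, which methylates 28S rRNA, read 10.37, 10.41 and 10.33 in the combination, against 10.40, 10.51 and 10.34 in trimebutine cultures (difference −0.05 ± 0.08). Rrs1, which helps load the 5S ribonucleoprotein, read 8.10, 8.28 and 8.18 in the combination, against 8.48, 8.30 and 8.17 in trimebutine cultures (difference −0.13 ± 0.10). Gnl3, nucleostemin, a nucleolar GTP-binding protein known for its high level in stem cells, read 9.33, 9.24 and 9.19 in the combination, against 9.09, 9.32 and 9.00 in trimebutine cultures (difference 0.11 ± 0.08). These 3 had adjusted p of 0.717, 0.34 and 0.33. Noc3l, which acts in early 60S assembly, read 9.63, 9.57 and 9.66 in the combination, against 9.78, 9.80 and 9.52 in trimebutine cultures. Its partner Noc2l read 8.33, 8.35 and 8.34 in the combination, against 8.34, 8.35 and 8.21 in trimebutine cultures. Their differences were −0.08 ± 0.09 for Noc3l (adjusted p = 0.519) and 0.04 ± 0.07 for Noc2l (adjusted p = 0.732). The RNA helicase Ddx18 read 9.33, 9.37 and 9.24 in the combination, against 9.38, 9.52 and 9.26 in trimebutine cultures. Nop16 read 8.93, 9.12 and 8.90 in the combination, against 8.99, 9.02 and 8.78 in trimebutine cultures. Rrp1b read 7.80, 8.02 and 7.95 in the combination, against 7.92, 8.06 and 7.65 in trimebutine cultures. The differences of these 3 were −0.08, 0.05 and 0.05, with adjusted p of 0.554, 0.742 and 0.793. The median over the 60S factors outside PeBoW was 0.04.

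The 3 Pol I subunits measured were not called. Polr1a, the largest subunit, read 7.79, 7.95 and 7.89 in the combination, against 7.83, 7.93 and 7.69 in trimebutine cultures. Polr1b, the second-largest, read 7.50, 7.51 and 7.68 in the combination, against 7.67, 7.86 and 7.50 in trimebutine cultures. Polr1c, which RNA polymerase III also uses, read 8.43, 8.59 and 8.47 in the combination, against 8.70, 8.69 and 8.57 in trimebutine cultures. All 3 overlapped between the conditions. The differences were 0.06 ± 0.07 for Polr1a (adjusted p = 0.578), −0.11 ± 0.12 for Polr1b (adjusted p = 0.538) and −0.15 ± 0.09 for Polr1c (adjusted p = 0.219).

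The 4 factors of 40S maturation and export measured had the smallest differences of any role. Nob1, the endonuclease that makes the final cut of 18S rRNA, read 9.58, 9.63 and 9.59 in the combination, against 9.50, 9.59 and 9.49 in trimebutine cultures (difference 0.08 ± 0.07). Its partner Pno1 read 8.76, 8.73 and 8.78 in the combination, against 8.81, 8.83 and 8.66 in trimebutine cultures (difference −0.01 ± 0.10). Both overlapped. Tsr1, a factor related to GTPases that sits on the immature 40S particle, read 9.23, 9.25 and 9.28 in the combination, against 9.33, 9.30 and 9.19 in trimebutine cultures (difference −0.02 ± 0.09). Ltv1, an assembly factor, read 8.18, 8.14 and 8.18 in the combination, against 8.17, 8.11 and 8.15 in trimebutine cultures (difference 0.02 ± 0.06). These overlapped too. The smallest adjusted p of the 4 was 0.47.

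Among the general nucleolar proteins, Ncl was called on 1 of its features and not on the other, and a difference between the features was not tested. Ncl, nucleolin, an abundant RNA-binding protein, read 11.39, 11.51 and 11.50 in the combination, against 11.62, 11.74 and 11.49 in trimebutine cultures on its brighter feature. That difference was −0.15 ± 0.08 (adjusted p = 0.176). Its dimmer feature read 10.47, 10.42 and 10.41 in the combination, against 10.64, 10.79 and 10.61 in trimebutine cultures, without overlap, and had a difference of −0.25 ± 0.07 (adjusted p = 0.0160). Ddx21, a helicase that senses Pol I activity, read 9.89, 10.05 and 9.98 in the combination, against 9.73, 9.94 and 9.66 in trimebutine cultures. It overlapped, and its difference of 0.19 ± 0.08 (adjusted p = 0.0868) passed with the replicate block (adjusted p = 0.0204). Nolc1, a snoRNP chaperone also called Nopp140, read 9.29, 9.48 and 9.33 in the combination, against 9.31, 9.42 and 9.18 in trimebutine cultures. Mybbp1a, a nucleolar protein that binds Myb, read 9.01, 9.08 and 9.08 in the combination, against 8.95, 9.14 and 8.86 in trimebutine cultures. Both overlapped, with differences of 0.06 ± 0.09 for Nolc1 (adjusted p = 0.653) and 0.07 ± 0.09 for Mybbp1a (adjusted p = 0.576). Ddx21 and Polr1a also have a dimmer feature each, and neither of these passed.

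**Figure D3:**
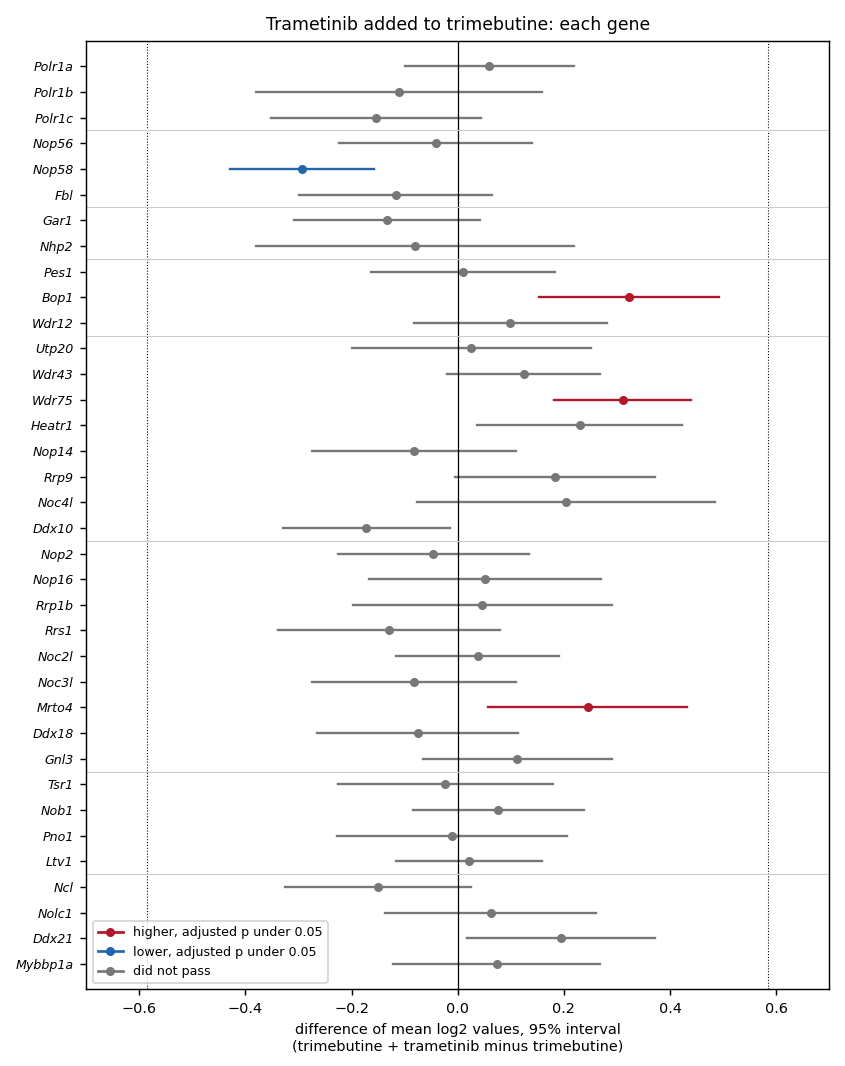
Difference in log2 value between the combination and trimebutine for each of the 36 genes (points) with its 95% interval from the limma fit (bars), grouped by role, with dotted lines at a change of 1.5-fold either way. All intervals, read from the brightest feature of each gene, stay inside the dotted lines.

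Set against vehicle, the combination gave values close to those above, with the combination arrays shared between both comparisons. Nop58 differed by −0.36 (adjusted p = 0.000806), Wdr75 by 0.33 (adjusted p = 0.00118), Bop1 by 0.26 (adjusted p = 0.0232) and Mrto4 by 0.26 (adjusted p = 0.0361). These 4 of 36 were called, where 35% of all genes were called, 17.5% in each direction. With the replicate block 7 members were called, with Ddx10 lower and Ddx21 and Heatr1 higher as the additions, beside 21.1% of all genes lower and 22.1% higher. Without overlap on the features the rule selects, 4 members lay below vehicle (Nop58, Gar1, Ddx10 and Ncl) and 5 above (Wdr75, Bop1, Mrto4, Heatr1 and Rrp9). Over all genes, 22.3% lay below and 24.9% above. The members' median was −0.02, with 19 of 36 below 0 beside 43.8% of all genes. On the features the rule selects, every 95% interval lay between −0.50 and 0.46. The dimmer feature of Nop56 differed from vehicle by −0.82 (95% interval −1.15 to −0.50, adjusted p = 0.00123), without overlap. That of Ncl differed by −0.28 (adjusted p = 0.00691). The dimmer features of Ddx21 and Polr1a did not pass. The Bop1 call was lost without vehicle replicate 1 (adjusted p = 0.0607), vehicle replicate 3 (0.0722), combination replicate 2 (0.0895) or combination replicate 3 (0.0553). The Mrto4 call was lost without the same arrays, with adjusted p of 0.135, 0.0732, 0.137 and 0.0681 in that order, which left Nop58 and Wdr75 as the 2 members called.

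**Figure D4:**
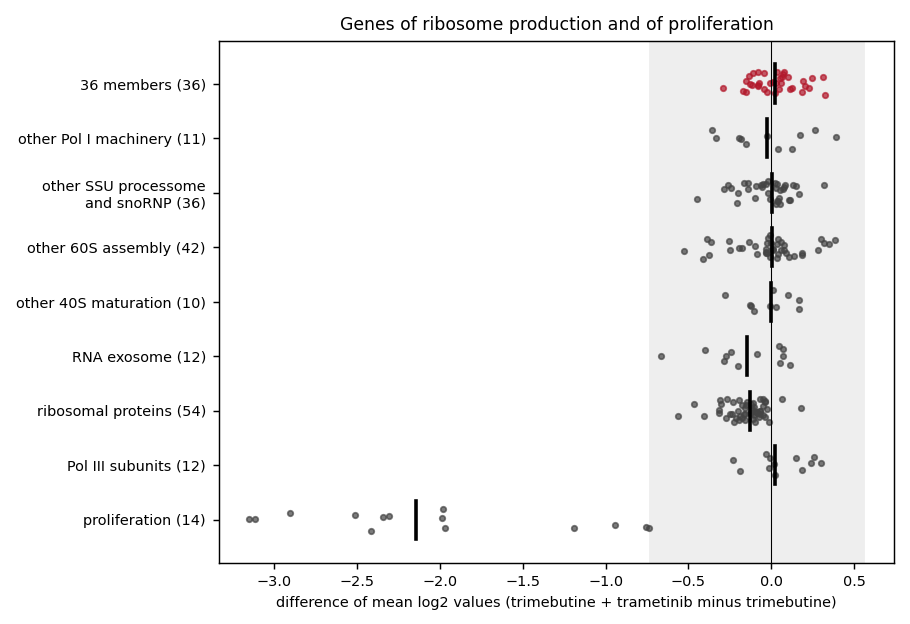
Difference in log2 value between the combination and trimebutine for each tested gene (points) of the 36 members and the other lists, with the median of each list (black bar) and the 5th to 95th percentile of all 13636 genes (grey band). All lists but the proliferation genes stay inside the band, with the members between −0.29 and 0.32. Ribosomal proteins lie mostly below 0, and the 14 proliferation genes lie between −3.15 and −0.74.

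Genes of the same pathway outside the 36 were read from further lists. Of 111 other ribosome biogenesis genes tested, 8 rose and 17 fell, 22.5% in all, with a median difference of −0.01. With each array shifted to the same median, 12 rose and 14 fell, with a median of 0.04. For each of the lists that follow, the share over all genes is the 16.8% higher and 16.6% lower given above. Among 11 other genes of the Pol I machinery, 2 rose and 2 fell. Rrn3, the initiation factor that couples Pol I to growth signals, differed by −0.36 (adjusted p = 0.000274), Ttf1, which ends Pol I transcription, by −0.33, and Polr1e, a Pol I subunit, by 0.39. Among 36 other SSU processome and snoRNP genes 1 rose and 5 fell, with Rcl1 at 0.32 and Esf1 at −0.28. Among 42 other 60S assembly genes 5 rose and 6 fell, with Mak16 at −0.53 (adjusted p = 3.17e-05), Brix1 at −0.41, Rpf1 at −0.37 and Wdr74 at 0.32. Of the 10 genes tested from the list of other 40S maturation genes 1 fell, Cinp, at −0.28. Whether Cinp itself acts in 40S maturation was not checked here. Of 12 RNA exosome genes, whose products trim precursor RNA, 3 fell: Exosc8 by 0.67 on the log2 scale (adjusted p = 7.89e-06), Mtrex by 0.28 and Dis3 by 0.27.

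Ribosomal proteins, which these factors assemble with the RNA, were read from a list of their own. Of 54 ribosomal protein genes tested, 17 fell and none rose, which is 31.5% lower and 0% higher, where 16.6% of all genes were lower and 16.8% higher. Their median was −0.13, and 52 were below 0, where 44.2% of all genes were. With each array shifted to the same median, 7 fell and none rose, with 47 below 0 and a median of −0.08. Rps3a differed by −0.56 (adjusted p = 0.000581), Rpl6 by −0.31 (adjusted p = 0.00135), Rpl19 by −0.32 and Rpl7 by −0.31. Ribosomal protein genes have many near-identical pseudogene copies, so their features may read more than 1 locus and these values are uncertain. Of 12 RNA polymerase III subunit genes, 2 rose (Polr3d by 0.30 and Polr3e by 0.26) and 1 fell (Polr3f, −0.23). Of 14 translation factor genes 2 rose and 1 fell, with Eif4ebp1, an inhibitor of cap-dependent translation, at 0.46. Of 11 nucleotide synthesis genes 1 rose and 3 fell, with Prps2 at −0.72.

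Myc itself was not called. It read 8.69, 9.01 and 8.87 in the combination, against 9.28, 9.21 and 8.59 in trimebutine cultures. The trimebutine arrays spread on both sides of the combination arrays, and the difference of −0.17 ± 0.19 (adjusted p = 0.536) had a 95% interval of −0.58 to 0.24. Of 11 Myc network genes, 3 rose and 2 fell, 45.5% in all, where 33.4% of all genes were called: the partner or antagonist genes Mlxip (0.53), Mnt (0.32) and the Myc relative Mycl (0.22) rose, and Mxi1 (−0.43) and Mxd3 (−0.34) fell.

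Alprostadil did not change any member past the threshold. None of the 36 was called, where 0.389% of all genes were, 0.323% higher and 0.066% lower. None was called with the replicate block either, where the count of all genes called was 257 and not 53, with 1.17% higher and 0.711% lower. The values lay mostly to 1 side: 32 of 36 were below 0 in alprostadil relative to vehicle, beside 54.6% of all genes, with a median of −0.10, beside −0.01. Without vehicle replicate 2 the members' median was −0.05. Of the 111 other ribosome biogenesis genes tested, 75 were below 0 in alprostadil relative to vehicle, with a median of −0.03. At an unadjusted p under 0.05, 4 members were lower and none higher, where 3.54% of all genes were lower and 3.42% higher. The cyclic AMP response genes Nr4a1 and Pde4b rose by 2.46 (adjusted p = 0.000341) and by 1.24 (adjusted p = 0.00211) on these arrays, and the proliferation list had a median of −0.21 with none of its genes called. The part of the proliferation genes' shift in the members' values was not tested.

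Bop1 had the smallest p of the members under alprostadil. It read 7.91, 8.02 and 8.04 in alprostadil, against 8.21, 8.26 and 8.16 in vehicle cultures, without overlap. The difference was −0.22 ± 0.08 (adjusted p = 0.524). Nop58 read 10.74, 10.80 and 10.74 in alprostadil, against 10.89, 11.00 and 10.81 in vehicle cultures, also without overlap, with a difference of −0.14 (adjusted p = 0.706). Nop2 read 10.20, 10.34 and 10.15 in alprostadil, against 10.38, 10.58 and 10.29 in vehicle cultures. It overlapped, with a difference of −0.18 (adjusted p = 0.701). Mybbp1a, the remaining member at an unadjusted p under 0.05, read 8.79, 8.94 and 8.68 in alprostadil, against 8.99, 9.12 and 8.90 in vehicle cultures (adjusted p = 0.715). Nop58 and Bop1 were the 2 members whose alprostadil arrays all lay below the vehicle arrays, and none lay above, where 6.19% of all genes lay below and 5.41% above. Lower values in all 3 isolates were found for 14 of the 36 members and higher values in all 3 for 3, where 19.8% of all genes were lower and 16.4% higher. The exceptions to the downward direction were Wdr75 (0.12), Wdr12 (0.04), Gnl3 (0.04) and Ncl (0.02). On the features the rule selects, the 95% intervals of the members lay between −0.51 and 0.25, which is 0.703- to 1.19-fold.

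Trimebutine alone gave the smallest differences. None of the 36 members was called and none had an unadjusted p under 0.05. Over all genes limma also called none (0%), with 143 at an unadjusted p under 0.05, 0.484% of all genes lower and 0.565% higher. No member was without overlap, where 2.06% of all genes lay below and 2.17% above. The members' differences between trimebutine and vehicle ran between −0.09 and 0.06, with a median of −0.01 and 23 of 36 below 0, beside 51.1% of all genes. On the features the rule selects, their 95% intervals lay between −0.32 and 0.31, which is 0.8- to 1.24-fold. The smallest p values belonged to Nop58, Rrp9 and Bop1. Nop58 read 10.85, 10.87 and 10.77 in trimebutine, against 10.89, 11.00 and 10.81 in vehicle cultures (difference −0.07). Rrp9 read 7.20, 7.41 and 7.28 in trimebutine, against 7.37, 7.45 and 7.35 in vehicle cultures (difference −0.09). Bop1 read 8.14, 8.28 and 8.01 in trimebutine, against 8.21, 8.26 and 8.16 in vehicle cultures (difference −0.07). All 3 overlapped, and each had an adjusted p of 1.

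**Figure D5:**
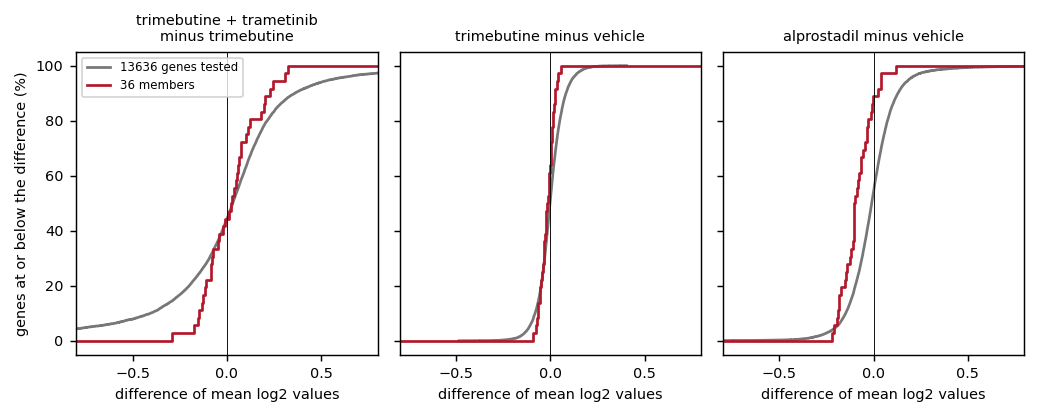
Cumulative percentage of the 36 members and of all 13636 genes tested against the difference in log2 value, for the combination minus trimebutine, trimebutine minus vehicle and alprostadil minus vehicle, from left to right. Under alprostadil the members' curve lies left of that of all genes, with 32 of 36 below 0, and under trimebutine both curves are steep near 0.

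The members' values also varied with the isolate. Replicate 2 was the highest of 3 arrays for 22 of the 36 members in the combination, 31 in trimebutine, 29 in alprostadil and 27 in vehicle cultures. Replicate 3 was the lowest for 8 members in the combination, 32 in trimebutine, 18 in alprostadil and 32 in vehicle cultures. The same ranks were not counted over all genes, so whether they are particular to the members cannot be told. Relative to the vehicle mean, the members' median was −0.04, 0.01 and −0.01 on the combination arrays. It was −0.01, 0.08 and −0.13 on the trimebutine arrays, −0.14, 0.00 and −0.12 on the alprostadil arrays and 0.00, 0.10 and −0.11 on the vehicle arrays. The median SD of a member over 3 arrays was 0.0696 in the combination, 0.127 in trimebutine, 0.0964 in alprostadil and 0.117 in vehicle cultures. For all genes it was 0.0972, 0.0937, 0.0967 and 0.0948, in the same order. Replicate 3 was also the replicate with the highest macrophage and leukocyte marker level in each condition, and the part of those cells in the members' values was not tested. The proliferation genes had their highest level in replicate 2 of the trimebutine, alprostadil and vehicle cultures, at 9.78, 9.56 and 9.85, whereas in the combination replicate 2 read 7.56 and replicate 1 read 7.60.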

How the data were processed

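RNA of the 12 SKP cultures was read on 1-colour arrays with biotin label, according to the labels' protocols. The authors made the deposited log2 values, 1 per array feature, by RMA in oligo, as the submitters' processing notes say without versions. Of the 36685 features on the array, 18511 carry exactly 1 gene symbol, 575 carry several and were left out, and 17599 carry none. Entrez identifiers linked 18394 of the symbols to the GRCr8 gene table, and 117 stayed as annotated. Where a symbol had several features the brightest was used, as for 4 members. A mean log2 signal of at least 5.83, the 25th percentile, was required, which left 13636 genes. The number of arrays limits the precision.

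Sample titles gave the groups and the replicate numbers. A limma model (limma 3.58.1, R 4.3.3) without the block covered all 12 arrays, with 8 residual degrees of freedom, and used lmFit, contrasts.fit and eBayes with two-sided tests and Benjamini-Hochberg adjustment over 13636 genes. Replicate numbers recur in every group, and the design text speaks of 3 isolates. Deviations from group means correlated at 0.21 to 0.81 in the 18 pairs of arrays that share a number, and at −0.71 to 0.10 in the 36 pairs that do not, and the arrays were therefore treated as paired by number in the blocked fit. The p-values reflect how cultures of these isolates vary.

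The members and the other gene lists were chosen with earlier results of these data known. All members could be named, with full values for those with the smallest p in each comparison, and up to 4 genes with the smallest p of each other list. Alternatives covered the replicate block, filters, scaling, the choice of feature, the groups in the fit, an intensity trend and each array left out. The fit was tested on simulated data with known answers. For changes of 0.5, the smallest simulated, 82% were recovered for the combination minus trimebutine and 68% for alprostadil minus vehicle. Of the calls made, 8 of 197 and 6 of 187 were false, in the same order. On the features the rule selects, the members' differences were all smaller in size than 0.5. Recovery of changes of their size was not simulated.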

Additional observations from a re-analysis of the deposited data

How the results depend on the processing

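With the replicate block, 7 members were called in the combination against trimebutine (main count 4) and 7 against vehicle (main count 4), 2 of them lower. Against trimebutine, 3 members were lower with the mean of all features and with the dimmer feature, which was added after seeing the data, and 3 were lower against vehicle in both cases. Against vehicle 2 were lower with the filter at the 50th percentile and with the compared groups alone. With 1 array left out, 3 to 5 members were called against trimebutine and 2 to 4 against vehicle. For alprostadil the count of all genes called was 257 with the block, 29 with the compared groups alone and 30 to 42 with an array left out (main count 53), and no member was called in any of these.

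The calls of Nop58, Wdr75 and Bop1 in the combination against trimebutine passed in all 15 alternatives run, with adjusted p up to 0.0165, 0.0104 and 0.0336. Mrto4 did not pass without the low-signal filter (0.0677), with the compared groups alone (0.0873) or with an intensity trend (0.0529), and against vehicle it did not pass without that filter (0.0539), with the compared groups alone (0.0546) or without vehicle replicate 1 or 3 or combination replicate 2 or 3 (up to 0.137). The block added Heatr1, Ddx21 and Noc4l against trimebutine and Ddx10, Ddx21 and Heatr1 against vehicle, and changed no other member's call. Heatr1 also passed with arrays shifted to the same median (0.0427), quantile normalization (0.0422) and the 50th percentile filter (0.0482), and Ddx21 with the shift (0.0390) and without trimebutine replicate 2 (0.0194). Against vehicle Ddx21 also passed with the shift, and Ddx10 with the 50th percentile filter and with the compared groups alone. Members near 0 changed sign: with the shift Nop56 was 0.00156, Tsr1 0.0201 and Pno1 0.0326, and with quantile normalization Pno1 was 0.0117. With an array left out, the ranges that crossed 0 were Nhp2 −0.193 to 0.0403, Noc2l −0.00732 to 0.0611, Nolc1 −0.00113 to 0.122, Nop14 −0.130 to 0.00994, Nop16 −0.0253 to 0.0973, Nop2 −0.0852 to 0.00108, Nop56 −0.0908 to 0.0138, Pes1 −0.0272 to 0.0523, Pno1 −0.0624 to 0.0202, Polr1a −0.00414 to 0.115, Rrp1b −0.0675 to 0.137, Tsr1 −0.0666 to 0.00529 and Utp20 −0.0485 to 0.125, and, for trimebutine against vehicle, Bop1 −0.135 to 0.000506. None of these values was called.

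The 3 arrays per condition limit what can be seen: the median SE was 0.0867, and 0.0722 with the block. For the combination against trimebutine, the members' median was −0.04 without trimebutine replicate 3, and 0.07 with arrays shifted to the same median.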
